A study of Mus musculus with 7 samples.

Results

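The genes described here encode the presynaptic vesicle machinery and the structural and identity proteins of neurons. The set holds 32 genes, listed by name, and was proposed with earlier results of these arrays known. It covers vesicle membrane proteins, the fusion machinery, the scaffold of the active zone, and enzymes and transporters of fast transmitters. Proteins of vesicle retrieval and the neuronal cytoskeleton, with a few general neuron genes, complete it. All 32 were measured, by 66 probe sets, among 18193 genes named on the arrays. RNA of hypothalami from mice aged 3 months was read on 7 arrays of the Affymetrix mouse430_2 type: 4 wild type and 3 of the genotype Creb-PomcCre-/-. In the latter, called knockout below, Creb is removed by a Cre recombinase named for Pomc, in arcuate neurons per the submitters, and no control carrying only the Cre was analysed here. The question was which genes lie downstream of CREB in neurons that control appetite. Replicates are called biological, but whether mice were pooled for a sample is not said, so p-values measure the spread between these samples.

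Neurons pass signals by releasing transmitter from small vesicles at the active zone, a patch of presynaptic membrane held in place by large scaffold proteins. SNARE proteins on vesicle and plasma membrane zip together to fuse the membranes, calcium binding to synaptotagmin triggers that step, and clathrin and dynamin then retrieve the membrane. In the hypothalamus most fast transmission uses GABA or glutamate, beside the neuropeptides for which the tissue is known. Pomc neurons, which restrain appetite, are a small share of its neurons, so that a value from the whole tissue mostly reports the other cells. In such bulk tissue, fewer cells of a type and less RNA per cell cannot be told apart.

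Correlations between arrays over probe sets ran from 0.994 to 0.997. The targeted gene Creb1 differed by -0.041 ± 0.052 (SE) on the log2 scale in whole hypothalamus, with overlapping groups, so that its level did not check the labels. Of 16 hypothalamic markers, several peptide transcripts were bright on every array: the level of the melanin-concentrating hormone gene Pmch was at least 13.66, that of the orexin gene Hcrt at least 12.02 and that of the oxytocin gene Oxt at least 12.24. The transcription factor gene Nkx2-1 was dim, at 5.50 to 5.80, and Lhx6, at 6.07 to 7.28, and Nr5a1, at 6.41 to 7.01, lay below the middle of all genes. No label gives the sex. By the levels of Xist and 3 genes of the Y chromosome 2 wild-type arrays and 1 knockout array came from females, and 2 and 2 from males.

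None of the 32 genes passed the test over all genes, yet most lay slightly below wild type. In the knockout, 28 of the 32 had a lower mean, against 48.5% of all genes, and the median log2 difference (knockout minus wild type throughout) was -0.087, against 0.0036 over all genes. The differences ran from -0.45 for Plppr4 to 0.038 for Slc17a7, that is from 26.9% lower to 1.03-fold. At an adjusted p under 0.05 (limma, Benjamini-Hochberg over all genes) 0 of the 32 passed, where 2 of 18193 genes, 0.011%, did. At an unadjusted p under 0.05 there were 9 members, 9 lower and 0 higher, a share of 28.1% against 11.7% of all genes, of which 6.12% were lower and 5.6% higher. For 10 members every knockout array lay below every wild-type array, and for 0 members above, where 6.05% of all genes lay wholly below and 6.09% wholly above. These 10 genes were Plppr4, Bsn, Tspoap1, Rbfox3, Nefm, Rims1, Dnm1, Syn2, Syn1 and Snap25.

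Bright genes in general were more often lower in the knockout arrays, and 28 members lay among the brightest 20% of genes. Among those bright genes 54.8% had a lower mean and 11.2% lay wholly below wild type, while of the 28 members there 25 had a lower mean and 9 (32.1%) lay wholly below. Against the median of genes of the same level, taken in 10 bins, the members' median difference was -0.084. No p is given for the set as a whole, since its members were proposed with results of these arrays known.

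**Figure D1:**
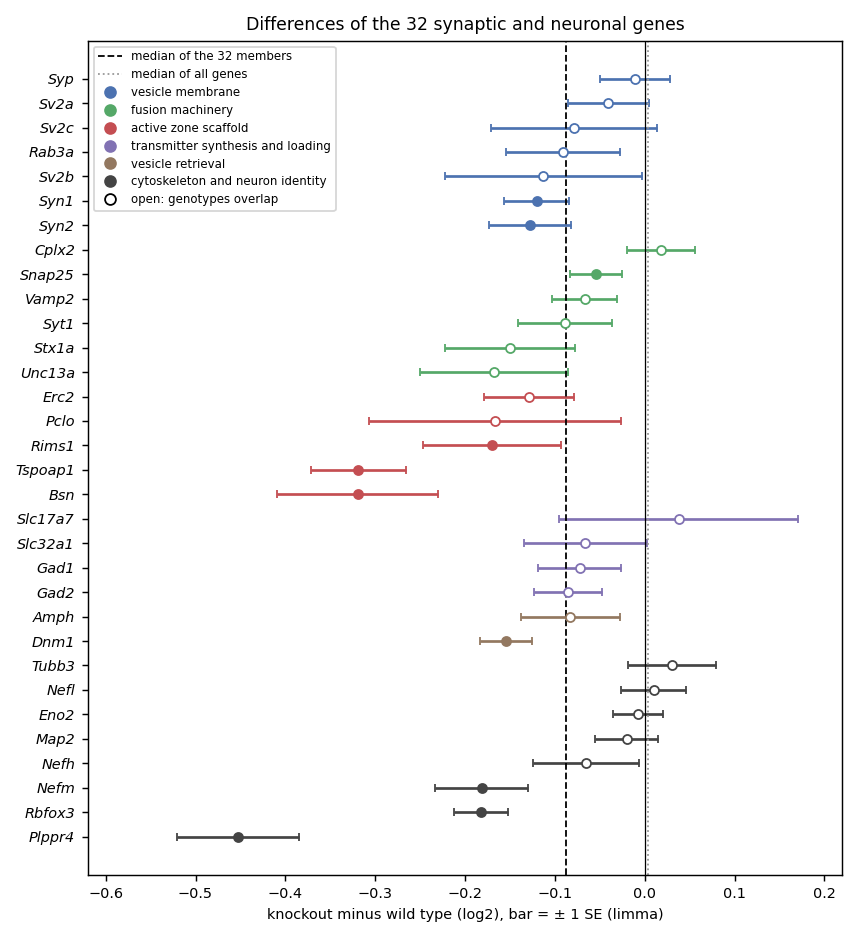
Log2 difference between knockout and wild type for each of the 32 genes (x axis), ordered by role, with bars of 1 standard error; filled points mark genes whose genotypes did not overlap. The points lie mostly left of 0 around a median of -0.087, and Plppr4, Bsn and Tspoap1 lie farthest left.

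Synapsins coat the vesicle surface and tether vesicles in a reserve pool. Syn1 read 10.28, 10.36, 10.28 and 10.33 in the wild-type arrays and 10.19, 10.21 and 10.17 in the knockout arrays. The groups did not overlap, but the gap was narrow: the difference was -0.12 ± 0.036 (SE), short of the threshold (limma, adjusted p = 0.308). Syn2 read 11.46, 11.61, 11.46 and 11.43 against 11.35, 11.36 and 11.38. Its groups did not overlap either, wild-type array 2 stood above the others, and the difference was -0.13 ± 0.046 (SE) (limma, adjusted p = 0.357). The other 5 probe sets of Syn2 overlapped, at 0.029, -0.10, -0.076, -0.15 and -0.25.

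Promoter sequence is shown for 3 members, since CREB binds the palindrome TGACGTCA, the cyclic AMP response element (CRE), and the shorter half-site TGACG. RefSeq promoters of assembly GRCm38.p6, 250 bases before to 50 after the start, matched 26 of the 32 members, with 32 promoters in all. Syn1 held the only full CRE among them and lay wholly below wild type. Unc13a, whose groups overlapped, held the most half-sites, 3, and Plppr4, the member with the largest difference, held none. The Syn1 promoter is chrX:20920869-20921168, minus strand, that of Unc13a chr8:71671708-71672007, minus strand, and that of Plppr4 chr3:117360827-117361126, minus strand. Capitals mark the CRE and its half-sites on either strand, so that a half-site on the other strand reads CGTCA.
Syn1: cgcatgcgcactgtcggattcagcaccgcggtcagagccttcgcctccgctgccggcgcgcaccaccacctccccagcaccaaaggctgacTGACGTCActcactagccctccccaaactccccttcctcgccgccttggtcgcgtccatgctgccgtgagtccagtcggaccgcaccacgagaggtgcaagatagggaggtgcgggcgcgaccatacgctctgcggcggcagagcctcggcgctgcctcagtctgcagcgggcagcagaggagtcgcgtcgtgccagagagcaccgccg
Unc13a: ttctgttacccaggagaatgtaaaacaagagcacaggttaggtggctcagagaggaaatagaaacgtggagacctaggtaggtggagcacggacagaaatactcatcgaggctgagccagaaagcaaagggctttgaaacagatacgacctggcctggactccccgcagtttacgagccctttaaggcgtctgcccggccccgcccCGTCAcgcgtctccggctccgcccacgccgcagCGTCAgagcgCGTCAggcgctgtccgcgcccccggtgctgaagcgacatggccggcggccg
Plppr4: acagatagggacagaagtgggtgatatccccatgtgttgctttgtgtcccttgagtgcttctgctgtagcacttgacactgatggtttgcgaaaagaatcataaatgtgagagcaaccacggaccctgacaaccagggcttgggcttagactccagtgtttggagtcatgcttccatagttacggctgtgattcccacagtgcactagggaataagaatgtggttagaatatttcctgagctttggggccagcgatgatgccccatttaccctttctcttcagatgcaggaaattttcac

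The CRE of Syn1 began 159 bases before the start site. A full CRE, searched as TGACGTCA, was in 1 of the 32 member promoters (3.12%) and in 1.79% of 32851 promoters of that length in the table. The half-site TGACG, searched on both strands and counted also inside a full CRE, was in 5 member promoters (15.6%), those of Syn1, Unc13a, Rab3a, Stx1a and Gad2, and in 20.8% of all. Of these 5 genes 1, Syn1, lay wholly below wild type. The 7 genes with a promoter in the table that lay wholly below wild type had 8 promoters, of which 1 held a half-site. The box GGGCGG, bound by Sp1 and searched on both strands, was in 17 member promoters (53.1%) against 35.7% of all, and TATAAA in 4 (12.5%) against 13.6%. Member promoters had a median GC content of 61.2%, against 52.7%. A match is a description of these letters, not a site in use.

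The other vesicle membrane genes overlapped between the genotypes. Syp, which encodes synaptophysin, the most used marker of synaptic vesicles, read 10.61 to 10.69 in wild type and 10.60 to 10.70 in the knockout, a difference of -0.010 ± 0.039 (SE). The glycoprotein genes Sv2a, Sv2b and Sv2c differed by -0.041 ± 0.045 (SE), -0.11 ± 0.11 (SE) and -0.079 ± 0.092 (SE). Sv2a is the SV2 form found at most synapses, and knockout arrays 1 and 2 lay inside its wild-type range, with array 3 below it. Without knockout array 3 its difference was 0.0069. Sv2b was highest in wild-type array 2, at 10.31 where the other 3 were at 9.84 to 10.03, and without that array its difference was -0.015. Its second probe set lay wholly below wild type, at -0.32 ± 0.11 (SE). Sv2c, at 5.48 to 5.80 on all arrays, lay below the median probe set and cannot be told from background. Rab3a, a vesicle GTPase, differed by -0.091 ± 0.063 (SE), which rests on knockout array 3 (11.80, against 12.07 and 12.05): without that array the difference was -0.0053. The second probe set of Rab3a was higher in the knockout, at 0.051 ± 0.043 (SE).

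Of the 6 fusion genes 5 had a lower mean, with a median of -0.078, and 1 lay wholly below wild type. Snap25, a plasma membrane SNARE, read 13.39, 13.48, 13.39 and 13.40 against 13.38, 13.33 and 13.37, a difference of -0.054 ± 0.029 (SE) (limma, adjusted p = 0.491). The highest knockout array and the lowest wild-type array were nearly level. Stx1a, its partner syntaxin, read 10.63, 10.85, 10.69 and 10.89 against 10.56, 10.56 and 10.73. The third knockout array lay inside the wild-type range, and the difference was -0.15 ± 0.072 (SE) (limma, adjusted p = 0.458), with the second probe set at 0.060. Vamp2, the vesicle SNARE, differed by -0.067 ± 0.036 (SE), and Syt1, the calcium sensor, by -0.089 ± 0.052 (SE). Without wild-type array 2, the highest for both and for Snap25, the differences were -0.041 for Vamp2, -0.042 for Syt1 and -0.034 for Snap25. Unc13a, which primes vesicles for release, differed by -0.17 ± 0.082 (SE), with wild-type values of 8.27 to 8.56 and knockout values of 8.13 to 8.35, and by -0.11 without that array. Cplx2, which encodes complexin, a clamp on the assembled SNAREs, was at 0.018 ± 0.038 (SE). In this role the adjusted p-values lay between 0.458 and 0.881 (limma).

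All 5 genes of the active zone scaffold had a lower mean, with the lowest median of the roles with more than 2 genes, -0.17, and 3 of them lay wholly below wild type. Tspoap1 encodes RIM-binding protein 1, which links RIM to calcium channels. Its arrays read 10.61, 10.74, 10.80 and 10.76 in wild type and 10.45, 10.33 and 10.45 in the knockout. The lowest wild-type array was clear of the highest knockout array, and the difference was -0.32 ± 0.053 (SE), or 19.8% lower (limma, adjusted p = 0.161). Without wild-type array 1 it passed, at -0.36 (limma, adjusted p = 0.0458), where 21 of all genes then passed.

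Bsn encodes bassoon, one of the giant proteins of the active zone. It read 8.89, 9.26, 8.91 and 8.96 against 8.72, 8.61 and 8.73. Wild-type array 2 stood well above the other 3, and the difference was -0.32 ± 0.090 (SE) (limma, adjusted p = 0.281), or -0.23 without that array. Rims1, which encodes the organiser RIM1, read 10.03, 10.33, 10.03 and 10.07 against 9.99, 9.86 and 9.99. Here too wild-type array 2 was the highest: the difference of -0.17 ± 0.076 (SE) (limma, adjusted p = 0.437) was -0.099 without it, and the groups were still apart. Pclo, for the bassoon relative piccolo, depended on the same array, which was at 10.82 while its 3 wild-type companions were at 10.15 to 10.27. Its difference of -0.17 ± 0.14 (SE) was -0.019 without it. Erc2, for the scaffold protein CAST, read 10.58, 10.73, 10.66 and 10.58 against 10.48, 10.47 and 10.58, with knockout array 3 level with the lowest wild-type arrays. Its difference was -0.13 ± 0.050 (SE) (limma, adjusted p = 0.383).

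On their highest-mean probe sets genes for GABA and glutamate did not separate the genotypes, and 0 of 4 lay wholly below or above wild type. Gad2, one of the GABA-synthesising enzymes, read 11.82, 11.83, 11.89 and 11.74 against 11.76, 11.73 and 11.71. The highest knockout array lay just above the lowest wild-type array, and the difference was -0.085 ± 0.038 (SE) (limma, adjusted p = 0.431), with the second probe set at 0.023. Gad1, the other such enzyme, differed by -0.072 ± 0.046 (SE), or -0.034 without wild-type array 3. Its second probe set was at -0.15 ± 0.069 (SE), with overlapping groups. Slc32a1, the vesicular transporter that loads GABA, differed by -0.066 ± 0.068 (SE), and by 0.0091 without knockout array 3. Its other probe sets, all dim, were at 0.25, 0.074 and 0.0018, the first of them wholly above wild type. Slc17a7, the vesicular glutamate transporter typical of cortex, was dim at 4.17 to 4.77 on all arrays, below the median probe set, and differed by 0.038 ± 0.13 (SE). Slc17a6, the vesicular glutamate transporter typical of hypothalamus and no member of the set, differed by -0.017 ± 0.066 (SE).

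Dnm1, the dynamin that pinches retrieved vesicles off the membrane, was the most uniform of the members in the knockout. Its wild-type arrays read 12.48, 12.57, 12.56 and 12.53, and its knockout arrays 12.38, 12.39 and 12.38. The groups were well apart relative to their spread, with 12.53 ± 0.038 (SD, n = 4) against 12.38 ± 0.0047 (SD, n = 3), yet the difference of -0.15 ± 0.029 (SE), or 10.2% lower, did not pass over all genes (limma, adjusted p = 0.185). Amph, for amphiphysin, which recruits dynamin, differed by -0.083 ± 0.056 (SE), with wild-type array 2 at 11.74 above the other arrays, and by -0.032 without that array.

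Of the 8 genes listed under the cytoskeletal and identity role 3 lay wholly below wild type and the other 5 overlapped. Plppr4, though listed there, encodes PRG-1, a membrane protein of excitatory synapses that handles lipid phosphates, not a cytoskeletal protein. It read 10.04, 10.17, 10.22 and 10.20 in wild type and 9.85, 9.61 and 9.65 in the knockout. The groups were apart, knockout array 1 lay nearest to wild type, and the means of 10.16 ± 0.084 (SD, n = 4) and 9.70 ± 0.13 (SD, n = 3) differed by -0.45 ± 0.068 (SE) (limma, adjusted p = 0.143). Without wild-type array 1 it passed, at -0.49 (limma, adjusted p = 0.0495).

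Rbfox3 encodes NeuN, a splicing factor used to stain neuronal nuclei. It read 11.56, 11.60, 11.62 and 11.59 against 11.44, 11.39 and 11.40, tight in both genotypes. The difference was -0.18 ± 0.030 (SE), or 11.9% lower (limma, adjusted p = 0.158). Nefm, the medium neurofilament subunit of axons, read 10.75, 10.92, 10.78 and 10.80 against 10.71, 10.56 and 10.61. Knockout array 1 came close to the lowest wild-type array, and the difference was -0.18 ± 0.052 (SE) (limma, adjusted p = 0.284).

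On their highest-mean probe sets the light and heavy neurofilament subunit genes did not follow Nefm as closely. Nefl differed by 0.0098 ± 0.036 (SE) and Nefh by -0.065 ± 0.059 (SE). The second probe set of Nefl, however, lay wholly below wild type, at -0.14 ± 0.036 (SE). Without wild-type array 2 Nefh was at -0.014. Whether they differ from Nefm was not tested. Map2, a microtubule protein of dendrites, differed by -0.020 ± 0.035 (SE), Tubb3, the neuronal tubulin, by 0.031 ± 0.049 (SE), and Eno2, the neuronal enolase, by -0.0075 ± 0.028 (SE). On these probe sets the general neuronal transcripts lay near 0 relative to their errors, beside Rbfox3 at -0.18. Another probe set of Map2 lay wholly above wild type, at 0.45 ± 0.090 (SE).

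**Figure D2:**
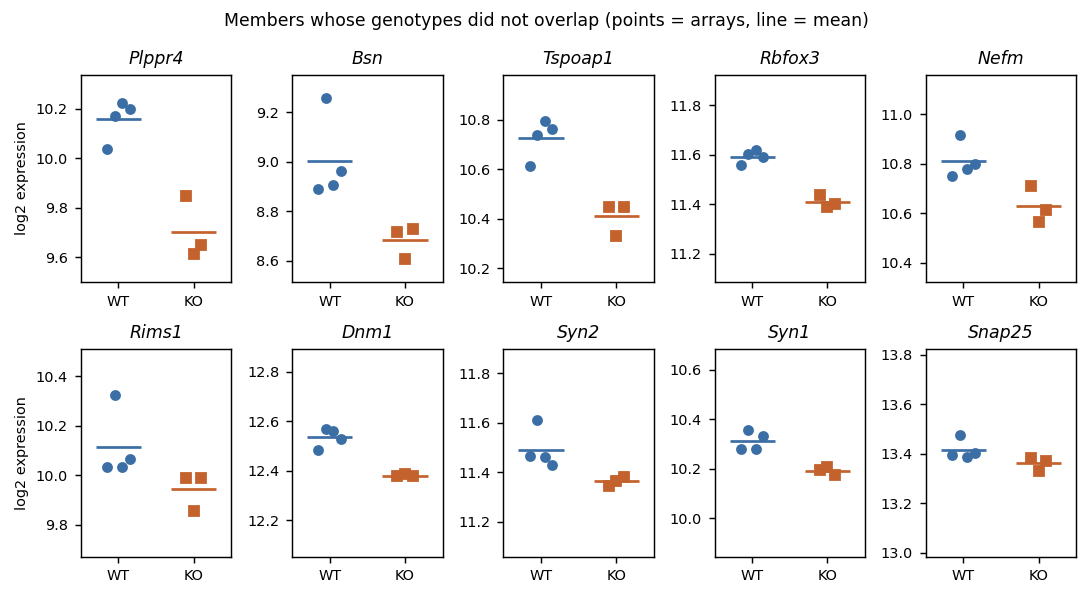
Log2 expression on each array (points) and group means (lines) for the 10 genes whose knockout arrays all lay below all wild-type arrays, with a y axis of equal span in every panel. The means are farthest apart for Plppr4 and nearest for Snap25, and wild-type array 2 stands high for Bsn and Rims1.

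Wild-type arrays also differed among themselves. For each array a score was taken, the median deviation of the 32 genes from their own means over all arrays. The wild-type scores were 0.0069, 0.10, 0.00098 and 0.028, and the knockout scores were -0.041, -0.062 and -0.052. No knockout score reached a wild-type score, but wild-type array 2 stood well above the other wild-type arrays. That array had the highest value of all 7 for 18 of the 32 genes, and knockout array 2 had the lowest for 13. Without wild-type array 2 the median difference was -0.065, with 27 of 32 lower and 10 genes wholly below wild type, where 8.5% of all genes then did. Without both wild-type arrays 2 and 3, a choice made after the values were seen, it was -0.051.

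Marker lists of other tissue and cells also differed between arrays. In the thalamus and habenula list knockout array 3, at 0.061, lay above wild-type arrays 1 and 3, at -0.15 and -0.16. In the members' score it lay below every wild-type array. The remaining arrays had the same order in both, and orders in the other lists were not compared. Wild-type array 2 had the highest score for 12 thalamus and habenula markers, 0.69, where the other wild-type arrays ran from -0.16 to 0.23 and the knockout arrays from -0.26 to 0.061. The 12 meningeal markers, 10 of them lower, scored from -0.38 to 1.06 in wild type, highest in array 3, and from -0.42 to -0.17 in the knockout. Mean levels of the thalamic list ran from 8.39 to 9.48 in wild type and from 8.41 to 8.90 in the knockout, with 11 of 12 genes lower. Vessel markers, with 8 of 11 genes lower, had mean levels of 8.14 to 8.20 and 7.95 to 8.11, and microglia markers, with 7 of 11 lower, 8.72 to 8.79 and 8.55 to 8.78. Astrocyte markers overlapped, at 10.85 to 10.92 and 10.90 to 10.97, with 5 of 12 lower, as did oligodendrocyte markers, at 10.93 to 11.43 and 10.95 to 11.26, with 6 of 11 lower. Blood cell markers were higher in all 8 genes measured, with mean levels from 4.74 in wild-type array 3 to 6.34 in knockout array 2, the highest by far. Markers of ependyma and tanycytes, with 5 of 9 lower, had mean levels of 7.86 to 7.91 and 7.89 to 7.99, and those of cortex and striatum, with 6 of 9 lower, 6.66 to 6.79 and 6.65 to 6.71. The hypothalamic list, with 12 of 16 genes higher, had 9.43 to 9.72, lowest in wild-type array 2, and 9.57 to 9.71. The part of these lists in the members' differences was not tested.

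Within the sexes as read from the arrays, with no test, the members' median difference was -0.030 between 2 wild-type and 1 knockout array of females, with 23 genes lower, and -0.14 between 2 and 2 arrays of males, with 30 lower. Wild-type array 2 is among the males.

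**Figure D3:**
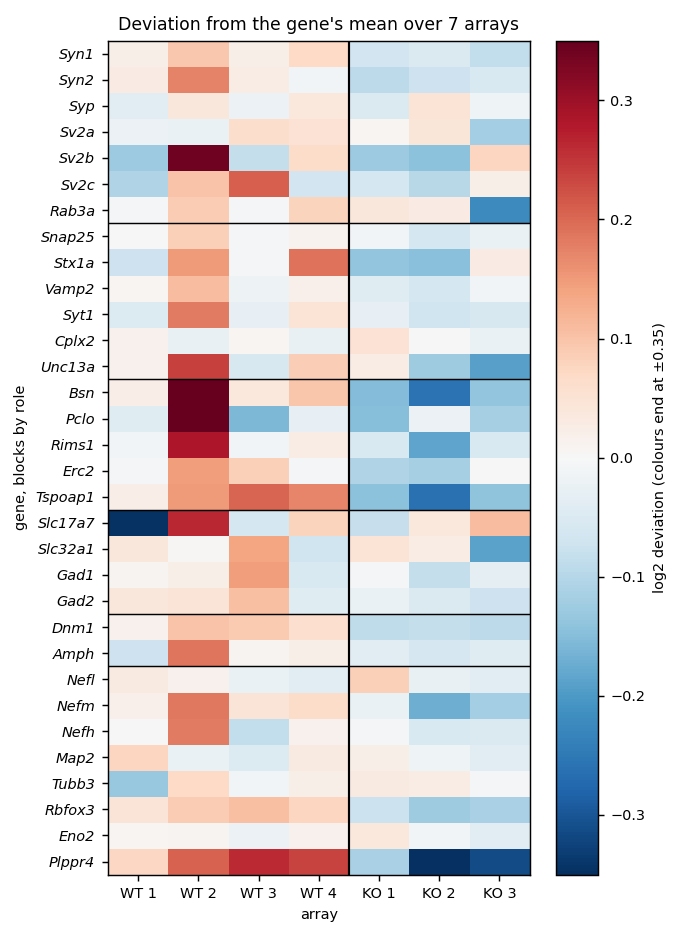
Deviation of each gene (rows, in blocks by role) from its mean over the 7 arrays, in log2 units, with wild-type arrays left and knockout arrays right of the line. Wild-type array 2 is high for most genes, most strongly for Sv2b, Bsn and Pclo, and the rows of Tspoap1, Dnm1, Rbfox3 and Plppr4 change colour at the line.

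The 20 members with more than 1 probe set allow a second look, since the highest-mean probe set stood for each gene above. Of the 34 other probe sets 20 were lower and 14 higher, 3 lay wholly below and 2 wholly above wild type (5.02% and 6.02% of all probe sets), and 0 of all 66 passed (limma), where 0.00666% of 45037 probe sets did. At an unadjusted p under 0.05 there were 14 of the 66, against 10.6% of all probe sets. Outside the highest-mean probe sets these were of Sv2b, Pclo and Nefl, which were lower, and of Map2 and Slc32a1, which were higher. Probe sets of 10 members were all lower, and those of 10 differed in sign. Of the 13 other probe sets of the 10 genes that lay wholly below wild type, 9 were lower.

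Second probe sets of Plppr4 and Rims1 were lower by similar or smaller amounts, at -0.20 ± 0.11 (SE) and -0.17 ± 0.090 (SE), as were both of Rbfox3, at -0.075 and -0.097, and that of Dnm1, at -0.084. All 3 probe sets of Pclo were lower, at -0.17, -0.12 and -0.44. For Bsn the other probe sets, which were dimmer, were at 0.13 and 0.086, and for Snap25 at 0.060. The second probe set of Nefl lay wholly below wild type, with 12.02, 12.04, 12.06 and 12.14 against 11.96, 11.89 and 11.91, a difference of -0.14 ± 0.036 (SE) (limma over probe sets, adjusted p = 0.323), unlike the brighter one. Map2 had the largest difference in the other direction: a probe set that read 8.94, 8.54, 8.64 and 8.69 in wild type read 9.08, 9.12 and 9.24 in the knockout, 0.45 ± 0.090 (SE) higher (limma over probe sets, adjusted p = 0.244). The brightest Map2 probe set showed no such gap. A dim Slc32a1 probe set was also wholly above wild type, at 0.25 ± 0.082 (SE). The part of a gene that each probe set reads was not examined.

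**Figure D4:**
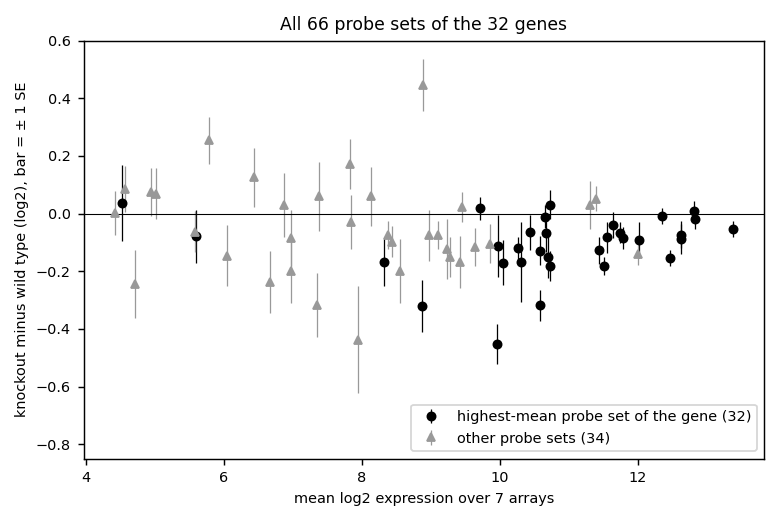
Log2 difference (y axis, bars of 1 standard error) against mean log2 level (x axis) for the 66 probe sets of the 32 genes. Most of the brightest probe sets of the genes (black) lie below 0, while the other probe sets (grey) spread to both sides, with Map2 highest at 0.45.

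Other genes of the same machinery, in lists also chosen with earlier results of these data known, were read for comparison, 227 measured of 244 listed. None passed over all genes (0 of 227, limma). At an unadjusted p under 0.05 there were 50, 47 lower and 3 higher, against 11.7% of all genes, 6.12% lower and 5.6% higher. Of the 227, 44 lay wholly below and 1 wholly above wild type (19.8% together). Of all genes 12.1% did, 6.05% below and 6.09% above. Among the brightest 20% of genes 11.2% lay wholly below, and the counts for the 227 were not matched for brightness. Their median difference was -0.046, or -0.041 against the median of genes of the same level. The lists differed in how far they were lower. Of 28 other active zone genes 25 had a lower mean, with a median of -0.090, and 9 (32.1%) lay wholly below wild type. Apba2, for the adaptor Mint2 that binds Munc18, differed by -0.56 ± 0.091 (SE) (limma, adjusted p = 0.15) and passed without knockout array 1. The presynaptic receptor phosphatase genes Ptprs and Ptprd differed by -0.20 ± 0.039 (SE) and -0.15 ± 0.031 (SE), and the neurexin gene Nrxn2 by -0.14 ± 0.035 (SE). These 3 had adjusted p-values of 0.194 to 0.267 (limma), and 1 other probe set of Ptprs and 2 of Ptprd were higher.

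Of 39 other cytoskeletal genes 34 had a lower mean, with a median of -0.063, and 13 lay wholly below and 1 wholly above wild type (35.9% together). The kinesin gene Kif5c was at -0.13 ± 0.030 (SE), the microtubule protein gene Map1a at -0.20 ± 0.051 (SE), the ankyrin gene Ank3 at -0.15 ± 0.041 (SE) and the adducin gene Add2 at -0.17 ± 0.048 (SE). Of 30 other neuron genes 22 were lower, with a median of -0.045. The splicing factor genes Nova2 and Rbfox1 were at -0.34 ± 0.059 (SE) and -0.22 ± 0.064 (SE), the noncoding RNA Meg3 at -0.14 ± 0.025 (SE) and the adhesion molecule gene L1cam at -0.19 ± 0.042 (SE). All 11 probe sets of Meg3 lay wholly below wild type, from -0.37 to -0.14, and none passed (limma over probe sets, lowest adjusted p = 0.124).  On the postsynaptic side 19 of 25 scaffold genes were lower, with a median of -0.079 and 4 (16%) wholly below wild type. Among them were Dlgap4 at -0.23 ± 0.067 (SE), Kalrn at -0.30 ± 0.091 (SE), the inhibitory synapse gene Nlgn2 at -0.12 ± 0.042 (SE) and Dlgap1 at -0.24 ± 0.088 (SE). For these 12 genes the adjusted p lay between 0.185 and 0.362 (limma), and at least 1 other probe set was higher for Kif5c, Ank3, Add2, Nova2, Rbfox1, Nlgn2, Kalrn and Dlgap1.

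The remaining lists, of other vesicle, retrieval, transmitter and proton pump genes, had medians closer to 0, whereas among the members the vesicle membrane (-0.091) and retrieval (-0.12) roles had lower medians than the cytoskeletal and identity role (-0.043). Of 43 other vesicle and fusion genes 26 were lower, with a median of -0.029, and 4 (9.3%) lay wholly below wild type. That share of the list lay between the 6.05% of all genes and the 11.2% of the brightest genes counted above. The list held Atp2b2, for a calcium pump of the plasma membrane and not a vesicle or fusion protein, at -0.27 ± 0.065 (SE). It also held Nsf, the ATPase that takes SNARE complexes apart, at -0.12 ± 0.036 (SE), with all 4 of its probe sets lower. Syngr1 was at -0.12 ± 0.043 (SE) and Syt7 at -0.35 ± 0.16 (SE). Of 29 other retrieval genes 17 were lower, with a median of -0.026, among them the scaffold gene Itsn1 at -0.31 ± 0.11 (SE), Sh3glb1 at -0.12 ± 0.050 (SE), the synaptojanin gene Synj1 at -0.065 ± 0.029 (SE) and the uncoating chaperone gene Hspa8 at -0.056 ± 0.021 (SE). Of 18 other transmitter genes 11 were lower, with a median of -0.016, with Slc1a1 at -0.12, Hdc at 0.15, Th at 0.23 and Slc18a1 at -0.099. The 15 subunits of the proton pump that energises vesicle filling had a median of 0.013, with 6 lower, Atp6v0b at 0.14 ± 0.043 (SE) and Atp6v0e2 at -0.11 ± 0.036 (SE), and Atp6v1e1 and Atp6ap2 at -0.049 and -0.057. At least 1 other probe set was higher for Atp2b2 (0.10), Syngr1 (0.15, wholly above wild type), Syt7 (0.070), Sh3glb1 (0.069), Synj1 (0.11), Slc1a1 (0.026), Slc18a1 (0.034) and Atp6v1e1 (0.020), and 3 were for Itsn1. The genes named from these 4 lists had adjusted p-values from 0.261 to 0.638 (limma). No difference between lists was tested.

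**Figure D5:**
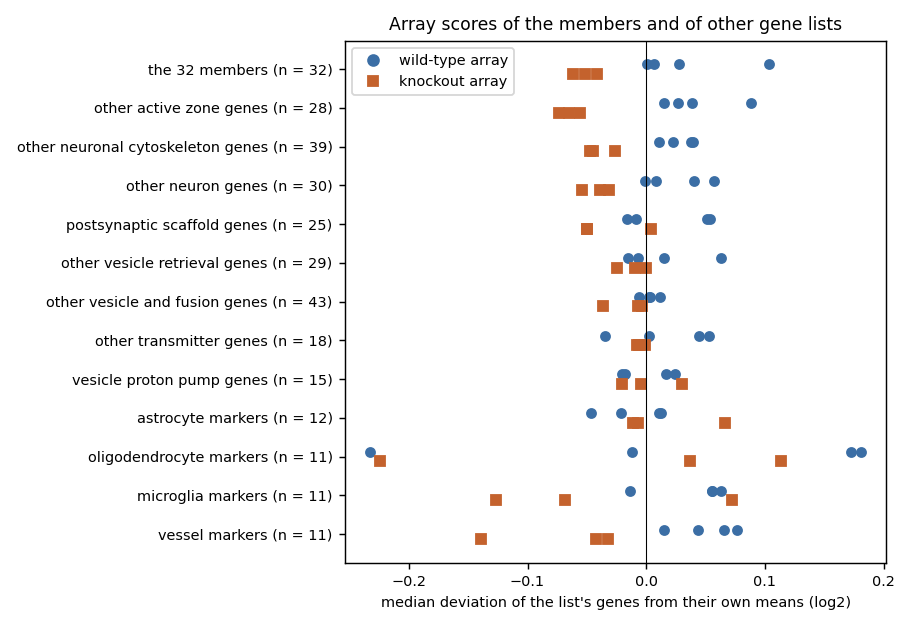
Score of each array, the median deviation of a list's genes from their own means in log2 units, for the 32 members, 8 related lists and 4 lists of markers of other cell types. Knockout arrays (squares) lie left of all wild-type arrays (circles) for the members, the other active zone, cytoskeleton and neuron genes and the vessel markers, and the 2 overlap for the other lists.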

How the data were processed

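The deposited values are log2 expression values per probe set. The authors used R 2.10.0, affy and RMA, per the submitters' processing notes, which give no order or settings. RMA usually makes the probe intensity distributions of all arrays equal and gives no detection call, so that low values cannot be told from background. The number of arrays limits the precision (median SE of a log2 difference 0.051 over the 32 genes).

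Of 45101 probe sets, 64 controls were left out. Genes were named from the 34945 probe sets with 1 symbol in the platform annotation, and the probe set of highest mean stood for each of 18193 genes. Knockout was compared with wild type on these values with limma 3.58.1 in R 4.3.3 (lmFit, eBayes with intensity trend, two-sided; threshold 0.05 after Benjamini-Hochberg adjustment over all genes or all probe sets), a fit tested on simulated data. Members, gene lists, tests and alternatives were chosen with earlier results of these data known. Values on every array are given for members with an unadjusted p under 0.05, with groups that do not overlap, or with the smallest p of their role, and from each related list the 4 genes of smallest p are named; other members are given by difference or range, and probe sets were picked after their values were seen. Alternatives covered normalization, low probe sets, the intensity trend, weights for arrays, the choice of probe set, sex, the replicate number as a block, the threshold and leaving out arrays. Deviations of same-numbered wild-type and knockout arrays from their group means had correlations over genes of 0.32, 0.10 and 0.14. Pairs of unlike number ran from -0.32 to 0.13. Wild-type array 2 was nearer to knockout array 3 (0.13) than to knockout array 2, so the correlations do not settle a pairing. The numbers were taken to pair the arrays for the block only. The labels do not say that they do, and each same-numbered pair is of 1 sex. Figures were drawn with matplotlib 3.10.9.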

Additional observations from a re-analysis of the deposited data

Results flagged for a closer look

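Of the 33 wild-type groups of 4 arrays examined (the 32 genes and their score), 1 held an array far from the others, against about 1 in 20 by chance: Rims1 read 10.33 in wild-type array 2 and 10.03 to 10.07 in the other wild-type arrays.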

How the results depend on the processing

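In every alternative more members were lower than higher (26 to 29 of the 32, or 27 of 30 with dim probe sets left out), and the median difference stayed negative. With an array left out it ran from -0.12 to -0.065, the number of members with no overlap between genotypes from 10 to 13 (7.78% to 11.7% of all genes then lay wholly below wild type), and the number at an unadjusted p under 0.05 from 7 to 13 (8.13% to 14.5% of all genes). The number of members that passed ran from 0 to 2, with Plppr4 and Tspoap1 passing without wild-type array 1, and of related genes from 0 to 1, with Apba2 passing without knockout array 1. In the other alternatives 0 members and 0 related genes passed. At an adjusted p under 0.1 (limma), with the other settings as in the report, 0 of either passed; with array weights the lowest adjusted p of a member was 0.085 (limma). A block for the replicate number (arrays 1 to 3 of both genotypes) gave 0 members that passed, 11 at an unadjusted p under 0.05 and a median of -0.10, and changed no call. With the mean of all probe sets 6 members lay wholly below wild type, as did 4.53% of all genes, and 1 wholly above.

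Signs of small differences depended on the settings. Syp was at 0.0016 with cyclic loess, 0.0093 with quantile normalization and 0.00084 with the replicate block, where Nefl was at -0.0022. With the mean of all probe sets Snap25 was at 0.0027, Slc32a1 at 0.066, Nefl at -0.066 and Map2 at 0.13. With the probe set of largest variance Snap25 was at 0.060, Stx1a at 0.060, Cplx2 at -0.12, Slc32a1 at 0.25, Nefl at -0.14 and Map2 at 0.45. Without wild-type arrays 2 and 3 Sv2c was at 0.042. The choice of probe set brought in other probe sets of the same genes. The replicate block was fitted without wild-type array 4, and leaving out that array alone changed the same signs, of Syp and Nefl. The cause of the remaining changes was not tested. With an array left out Syp ran from -0.037 to 0.012, Sv2a from -0.073 to 0.0069, Cplx2 from -0.0026 to 0.034, Slc17a7 from -0.072 to 0.13, Slc32a1 from -0.11 to 0.0091, Nefl from -0.029 to 0.033, Map2 from -0.039 to 0.0021, Tubb3 from -0.0093 to 0.058 and Eno2 from -0.028 to 0.0099.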
